A study of Mus musculus with 12 samples.

Results

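Cartilage matrix genes and the transcription factors that switch them on were followed in RNA from newborn mouse calvaria, the roof of the skull, in 2 sets of mice. The genes were 10 in number, of 23715 gene symbols in the tables, and were taken by name: Sox9, Sox5, Sox6, Acan, Hapln1, Matn1, Matn3, Matn4, Comp and Chad. The expression of each was the sum of the FPKM values (fragments scaled by transcript length and library size, an abundance per length) of its RefSeq transcripts. A gene was tested where 3 or more of the 12 libraries reached 1 FPKM, which left 13059 genes, and all 10 were among them.

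The first set held 3 control littermates, whose labels give the genotype as WT, and 3 Med23MSC-/- mice. For other experiments with this cross the paper gives the controls as Med23fl/fl. Whether the controls sequenced here carried floxed alleles is not stated. In the Med23MSC-/- mice, floxed alleles of Med23, which encodes a subunit of the Mediator complex, were deleted by a Prx1-Cre transgene. That transgene is active largely in limb and craniofacial mesenchyme, so that cells outside that lineage kept the gene. The second set held 3 wild-type (WT) and 3 Runx2+/- littermates, the latter with 1 working allele of the bone master regulator RUNX2 in every cell. The mice were C57BL/6 newborns, and the study's methods place the RNA in the parietal bone at postnatal day 2. Each library came from 1 mouse. The sets were compared separately, and they share no control mice.

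Neither targeted gene was lower in its own mutant libraries, so the groups are named here as labelled. Med23 was at 5.99, 5.42 and 4.54 FPKM in the controls and at 4.89, 5.74 and 5.28 FPKM in the libraries labelled Med23MSC-/-. A sum over whole transcripts need not show the loss of a few floxed exons. Runx2 was at 29.8, 37.7 and 27.3 FPKM in WT and at 34.3, 30.4 and 35.7 FPKM in the libraries labelled Runx2+/-. The levels of each overlapped between the groups of its own set, and the labels of these libraries could not be checked in this way. In the Med23 set Runx2 was at 38.0, 38.0 and 30.5 FPKM in controls and at 23.7, 27.7 and 28.7 FPKM in Med23MSC-/- mice. These groups did not overlap, and 7.68% of all genes tested lay wholly below the controls there. By real-time PCR the paper reports Runx2 as unchanged in Med23MSC-/- calvaria. Xist, expressed from the inactive X chromosome of females, marked 2 of the 3 controls of the Med23 set and 1 WT mouse of the Runx2 set as female, and all 6 mutant libraries as male. The transcript tables gave no counts. A rough estimate from their smallest values put each library at 7690000 to 12000000 fragments.

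Cartilage is built by chondrocytes, which embed themselves in a gel of aggrecan bound to hyaluronan and held in place by fibrils of type II, IX and XI collagen. SOX9 starts this programme, and SOX5 and SOX6 act with it on the enhancers of the matrix genes. The calvaria forms by direct ossification of mesenchyme, without a cartilage model, but thin cartilage lies next to it at the skull base and under some sutures, and the fibrous tissue of the sutures makes some of the same matrix proteins. In bulk RNA, fewer cells of a kind and less RNA per cell cannot be told apart.

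The sequence just upstream of 5 of the genes is shown because these are the ones that the comparisons below turn on: Matn1 and Matn3, which varied together, Acan and Hapln1, the gel-forming pair, whose means like those of the SOX trio were higher in mutant mice of both sets, and Chad, the only one called. RefSeq (GRCm38.p6) gave upstream windows for 8 of the 10 genes, and Sox9 and Comp had none. Each is printed 5′ to 3′ on the plus strand, which is the coding strand of these 5 genes, and ends at the base before the gene record. Capitals mark TGTGGT, a RUNX motif, AACAAT or ACAAAG, SOX motifs, or TATAAA, the TATA box, on either strand. The motifs do not overlap one another in these windows. The windows are chr4:130944135-130944384 for Matn1, chr12:8947679-8947928 for Matn3, chr7:79052976-79053225 for Acan, chr13:89540386-89540528 for Hapln1 and chr11:94564797-94565046 for Chad.
Matn1: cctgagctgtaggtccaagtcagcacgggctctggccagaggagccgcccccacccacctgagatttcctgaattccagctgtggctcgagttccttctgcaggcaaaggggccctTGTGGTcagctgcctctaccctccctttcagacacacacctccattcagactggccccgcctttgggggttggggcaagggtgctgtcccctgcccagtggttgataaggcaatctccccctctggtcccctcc
Matn3: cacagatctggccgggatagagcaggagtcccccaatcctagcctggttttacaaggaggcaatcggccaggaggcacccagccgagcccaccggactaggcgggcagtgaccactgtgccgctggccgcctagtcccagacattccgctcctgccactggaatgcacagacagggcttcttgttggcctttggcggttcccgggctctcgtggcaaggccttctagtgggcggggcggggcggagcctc
Acan: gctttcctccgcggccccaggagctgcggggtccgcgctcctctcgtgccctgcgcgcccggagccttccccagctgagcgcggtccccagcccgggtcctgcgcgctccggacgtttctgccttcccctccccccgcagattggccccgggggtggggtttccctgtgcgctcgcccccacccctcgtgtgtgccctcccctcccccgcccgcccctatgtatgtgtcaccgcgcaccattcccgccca
Hapln1: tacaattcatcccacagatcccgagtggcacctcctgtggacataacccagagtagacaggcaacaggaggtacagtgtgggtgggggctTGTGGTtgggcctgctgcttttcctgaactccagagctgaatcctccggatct
Chad: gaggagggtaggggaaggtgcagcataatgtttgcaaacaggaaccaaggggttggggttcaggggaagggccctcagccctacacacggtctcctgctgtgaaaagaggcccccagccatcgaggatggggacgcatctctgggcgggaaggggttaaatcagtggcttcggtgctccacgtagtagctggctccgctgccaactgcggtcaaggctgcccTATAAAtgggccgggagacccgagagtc

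The RUNX motif was found 134 bases before the start of Matn1 and 160 bases before the annotated start used for Hapln1. It stood in 14.0% of the 32851 upstream windows of 250 bases in the RefSeq table, and in windows of 3 of the 8 matched genes, the third being Sox6. Chad carried TATAAA 28 bases before its start, a motif held by 12.4% of all windows. No SOX motif stood in the 5 windows shown. These motifs were held by 24.0% of all windows, and of the 8 genes only Sox6, with 6 annotated starts, had any, in 5 of the 14 windows of the 8 genes. A match is a run of letters and no evidence of binding.

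Levels spread widely between the genes. Matn4 was the most abundant, with a mean of 81.8 ± 27.0 FPKM (SD, n = 12 mice), followed by Chad at 23.1 ± 5.67, Hapln1 at 9.92 ± 2.77, Acan at 7.73 ± 2.62, Comp at 5.40 ± 1.63 and Matn1 at 4.80 ± 4.86 FPKM. The transcription factors were lower, with Sox6 at 2.88 ± 0.632, Sox9 at 1.55 ± 0.333 and Sox5 at 0.943 ± 0.229 FPKM, and Matn3 was lowest at 0.868 ± 0.502 FPKM. Matn4 stood above Chad, Chad above Hapln1, Sox6 above Sox9 and Sox9 above Sox5 in all 12 mice. Hapln1 stood above Acan in 11 mice, Acan above Comp in 9, Comp above Matn1 in 8 and Matn1 above Sox6 in 6, and Sox5 above Matn3 in 6, so the neighbours from Acan to Sox6, and the lowest pair, were not separated beyond their spread. Roughly 9 to 77 fragments per mouse lay behind Matn3, 19 to 370 behind Matn1 and 22 to 48 behind Sox5, against 940 to 3600 behind Matn4.

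The mice differed most in the matrilins that are typical of cartilage. Between the lowest and the highest mouse Matn1 ranged 20-fold and Matn3 8.46-fold, whereas the other 8 genes ranged 1.96-fold (Chad) to 3.10-fold (Comp). The values of every mouse, with group means and SD, are plotted by gene.

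**Figure D1:**
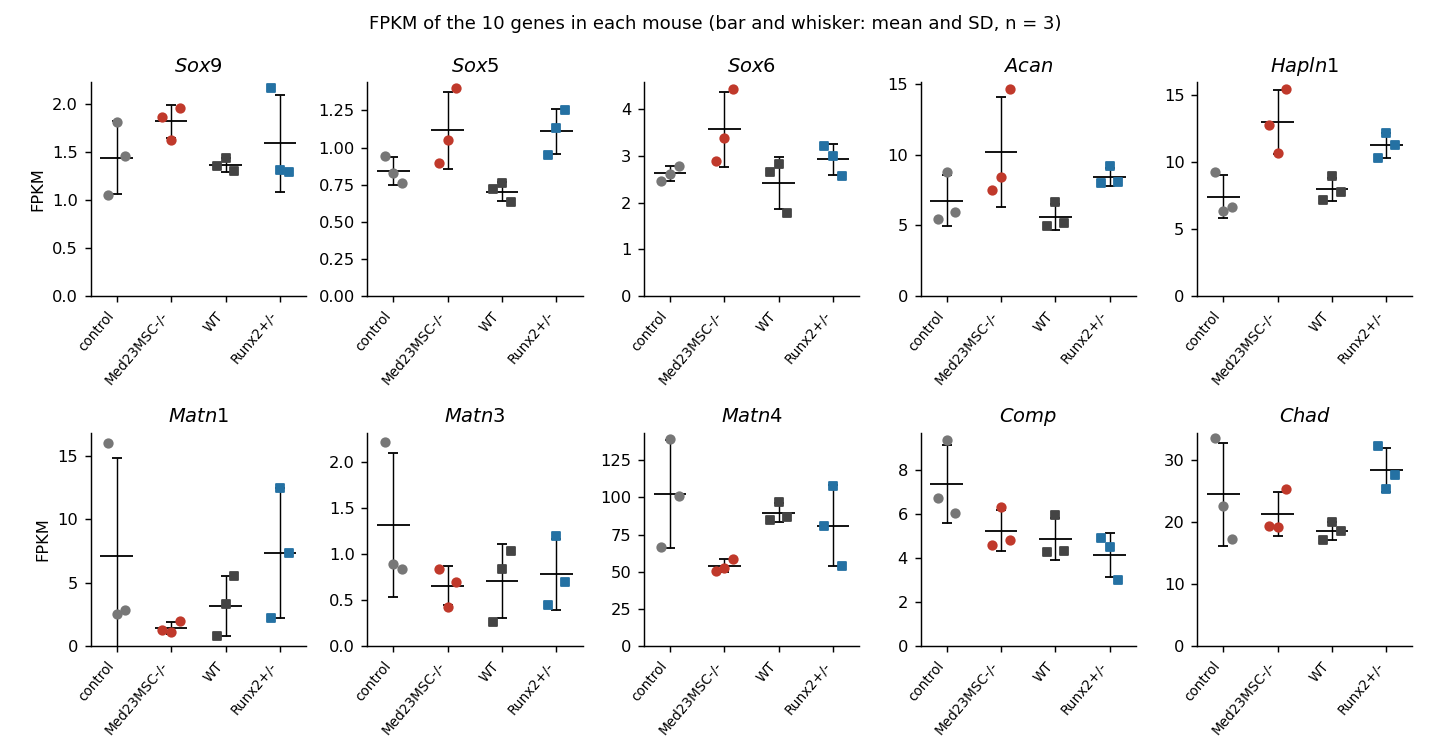
Expression of the 10 genes (FPKM, linear axes from 0) in the 3 mice of each group, with mean and SD. Hapln1 lies higher in every mutant mouse than in any control of its set (10.7 to 15.5 against 6.38 to 9.31 FPKM in the Med23 set), Matn4 lies lower in the 3 Med23MSC-/- mice (50.5 to 59.0 FPKM), and Matn1 scatters in 3 of the 4 groups.

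Of the 10 genes, none passed an adjusted p of 0.05 (limma, Benjamini-Hochberg over 13059 genes) between Med23MSC-/- and control mice, where 1.57% of all genes tested did. In the other set 1 passed between Runx2+/- and WT mice, upward, where 1.89% of all genes did and 0.398% did upward, and none in the difference of both changes, where 0.153% did. Without adjustment, limma gave a p under 0.05 to 4 genes in the Med23 set (Hapln1, Matn4, Comp and Matn1; 21.3% of all genes tested), to 3 in the Runx2 set (Acan, Hapln1 and Chad; 15.4%) and to 2 in the difference (Chad and Matn1; 15.3%). In the Med23 set 5 genes had higher and 5 lower means on the log2(FPKM + 1) scale, with a median log2 change of 0.02 against 0.063 for all genes tested. In the Runx2 set 8 were higher and 2 lower, with a median of 0.26 against 0.0248. With 3 mice against 3, an exact permutation test of a single gene cannot give a p below 0.1.

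**Figure D2:**
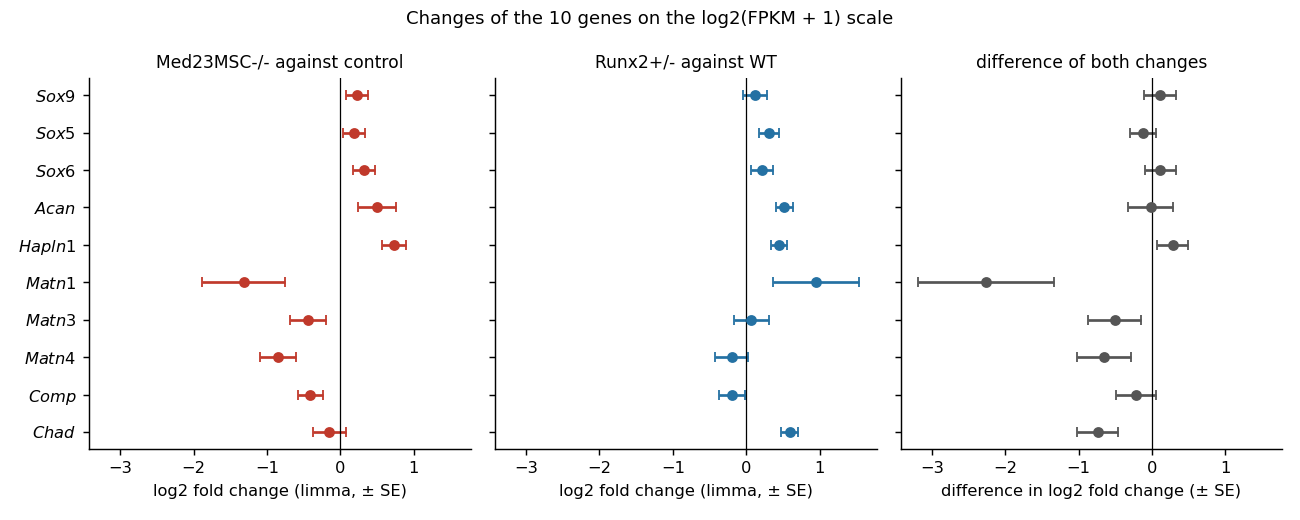
Log2 fold changes with their standard errors (limma, log2(FPKM + 1)) in the Med23 set, in the Runx2 set, and the change in the Med23 set minus that in the Runx2 set, on 1 common horizontal scale. Hapln1 and Acan lie to the right of 0 in both sets, Chad does so in the Runx2 set (0.59), and Matn1 lies on opposite sides of 0 (-1.32 and 0.95) with the widest errors.

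The SOX trio was present at a low level in every library. Sox9, the factor that commits mesenchyme to cartilage, was at 1.05, 1.81 and 1.46 FPKM in the controls and at 1.87, 1.63 and 1.96 FPKM in the Med23MSC-/- mice. It was at 1.36, 1.44 and 1.30 FPKM in WT and at 2.17, 1.31 and 1.29 FPKM in Runx2+/- mice. The groups overlapped in both sets, and only Runx2+/- mouse 1 lay above the WT range. The log2 changes were 0.22 ± 0.15 (SE; limma adjusted p = 0.446) and 0.12 ± 0.16 (adjusted p = 0.793), without a detectable difference between them (0.11 ± 0.22, adjusted p = 0.865).

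Sox5 and Sox6, the partners of SOX9, were a little higher in most mutant mice. Sox5 was at 0.943, 0.827 and 0.760 FPKM in the controls and 0.895, 1.05 and 1.40 FPKM in Med23MSC-/- mice, an overlapping pair of ranges. In the Runx2 set the 3 mutants, at 0.948 to 1.25 FPKM, lay above the 3 WT mice, at 0.631 to 0.759 FPKM. The log2 changes, 0.19 ± 0.15 (limma adjusted p = 0.502) and 0.31 ± 0.14 (adjusted p = 0.354), did not pass the test. Sox6 did the converse: its 3 Med23MSC-/- values, 2.88, 3.38 and 4.44 FPKM, lay above the 3 controls, 2.47, 2.62 and 2.79 FPKM, while the WT (2.65, 2.83 and 1.78 FPKM) and Runx2+/- values (3.21, 2.99 and 2.57 FPKM) overlapped. Its log2 changes were 0.32 ± 0.15 (limma adjusted p = 0.262) and 0.21 ± 0.15 (adjusted p = 0.567). Sox6 was summed over 6 transcripts. The transcript with the highest estimate was not the same in all mice, and the most abundant transcript over all mice alone gave log2 changes of -0.30 and -0.01, so the direction for Sox6 depended on the sum.

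Aggrecan and link protein, the pair that forms the water-binding gel, had higher means in the mutant mice of both sets. Acan, the core protein of aggrecan, was at 5.44, 8.80 and 5.97 FPKM in the controls and at 7.47, 8.41 and 14.6 FPKM in the Med23MSC-/- mice. These groups overlapped, and Med23MSC-/- mouse 3 was the highest of all 12 mice. The log2 change was 0.50 ± 0.26 (limma adjusted p = 0.306), and 0.23 without that mouse. Acan was at 4.97, 6.68 and 5.14 FPKM in WT and at 8.01, 9.18 and 8.05 FPKM in Runx2+/- mice. All 3 mutants lay above all 3 WT mice, with means of 5.60 ± 0.942 and 8.41 ± 0.663 FPKM (SD, n = 3), a ratio of 1.50. The log2 change of 0.52 ± 0.12 had an unadjusted limma p of 0.00272 and an adjusted p of 0.0798.

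Hapln1, the link protein that pins aggrecan to hyaluronan, was the only one of the 10 genes for which mutant and control mice did not overlap in either set. It was at 9.31, 6.38 and 6.65 FPKM in the controls and at 12.8, 10.7 and 15.5 FPKM in the Med23MSC-/- mice, a ratio of means of 1.75. For the Runx2 set the values were 7.20, 8.95 and 7.78 FPKM in WT and 10.3, 12.2 and 11.3 FPKM in Runx2+/- mice, a ratio of 1.42. The log2 changes, 0.73 ± 0.17 and 0.45 ± 0.11, had limma adjusted p-values of 0.0816 and 0.0820 and so missed the threshold in each set. With all 12 mice in 1 limma fit, which shares 1 estimate of the spread, the change in the Med23 set passed (adjusted p = 0.0237) and that in the Runx2 set did not (0.182). The changes differed by 0.28 ± 0.21 (limma adjusted p = 0.579). Against male controls only, which left 1 control in the Med23 set, the Hapln1 change there was 0.43.

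Across the 10 genes, 2 lay wholly above and 2 wholly below the controls in the Med23 set, where 19.6% and 7.68% of all genes tested did so. The former were Sox6 and Hapln1, and the latter Matn1 and Matn4. In the Runx2 set 4 lay wholly above WT (Sox5, Acan, Hapln1 and Chad) and none wholly below, where 10.7% and 10.4% of all genes did.

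The matrilins are adaptor proteins that bridge collagen fibrils and aggrecan. All 3 had lower means in the Med23MSC-/- mice, and none of their changes passed the test. Matn1, which is largely restricted to cartilage, was at 16, 2.52 and 2.84 FPKM in the controls and at 1.30, 1.13 and 2.03 FPKM in the Med23MSC-/- mice. It was at 0.798, 3.31 and 5.53 FPKM in WT and at 2.21, 12.5 and 7.34 FPKM in Runx2+/- mice. Every Med23MSC-/- mouse lay below every control, but control mouse 1 alone was far above the other two, and the Runx2 groups overlapped. The log2 changes of -1.32 ± 0.56 (limma adjusted p = 0.234) and 0.95 ± 0.59 (adjusted p = 0.507) differed by -2.26 ± 0.93, with an unadjusted limma p of 0.0325 and an adjusted p of 0.270. Single mice moved these values: without control mouse 1 the Med23 change was -0.58, and over the omission of each mouse in turn the Runx2 change ran from 0.43 (without WT mouse 1) to 1.52 (without Runx2+/- mouse 1), 0.48 without Runx2+/- mouse 2, and the difference from -2.84 to -1.53.

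Matn3, a second cartilage matrilin, was at 2.22, 0.896 and 0.839 FPKM in the controls and at 0.842, 0.433 and 0.704 FPKM in the Med23MSC-/- mice. It was at 0.263, 0.839 and 1.03 FPKM in WT and at 0.447, 1.20 and 0.697 FPKM in Runx2+/- mice. The groups overlapped in both sets, and the mice with the highest Matn3 were the same pair as for Matn1, control mouse 1 and Runx2+/- mouse 2. The log2 changes were -0.44 ± 0.25 (limma adjusted p = 0.347) and 0.07 ± 0.24 (adjusted p = 0.928). Without control mouse 1 the former was -0.18.

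Matn4, a matrilin made in many tissues, was at 66.5, 139 and 101 FPKM in the controls and at 50.5, 52.8 and 59.0 FPKM in the Med23MSC-/- mice. All 3 mutants lay below all 3 controls, and the ratio of means was 0.530. The log2 change of -0.85 ± 0.24 had an unadjusted limma p of 0.00869 and an adjusted p of 0.115. Runx2+/- mice (81.0, 108 and 53.8 FPKM) spanned the WT range (85.2, 96.9 and 86.8 FPKM), with a log2 change of -0.20 ± 0.22 (limma adjusted p = 0.732). The lowest control, mouse 1, was the male one, and against it alone the Med23 change was -0.30. The more abundant of its 2 transcripts gave 51.6 to 71.6% of the Matn4 sum in each mouse, with means of 56.4% ± 2.33 in controls, 64.5% ± 6.85 in Med23MSC-/-, 58.1% ± 6.80 in WT and 68.3% ± 3.32 in Runx2+/- mice (SD, n = 3).

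Chad, chondroadherin, a leucine-rich protein that links cells to collagen, was the only gene of the 10 that passed the test. It was at 17.1, 20 and 18.5 FPKM in WT and rose to 32.3, 25.3 and 27.6 FPKM in the libraries labelled Runx2+/-, a ratio of means of 1.54. The groups did not overlap, and the log2 change was 0.59 ± 0.11 (limma adjusted p = 0.0456). Leaving out any 1 of the 6 mice put the adjusted p between 0.0605 and 0.180, with a log2 change between 0.49 and 0.66, so the call was lost as each of them was left out. In the Med23 set Chad was at 33.5, 22.6 and 17.2 FPKM in the controls and at 19.3, 19.2 and 25.3 FPKM in the mutants, overlapping, with a log2 change of -0.15 ± 0.23 (limma adjusted p = 0.740). The 2 changes differed by -0.74 ± 0.28, with an unadjusted limma p of 0.0207 and an adjusted p of 0.229.

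Comp, a pentameric thrombospondin that organizes collagen fibrils in cartilage and tendon, was at 6.73, 9.37 and 6.03 FPKM in the controls and at 4.59, 6.30 and 4.84 FPKM in the Med23MSC-/- mice. It was at 4.28, 5.95 and 4.32 FPKM in WT and at 4.92, 4.49 and 3.02 FPKM in Runx2+/- mice. The means were lower in the mutants of both sets but the groups overlapped, and the log2 changes were -0.41 ± 0.17 (limma adjusted p = 0.227) and -0.19 ± 0.18 (adjusted p = 0.659).

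As a proxy for the amount of cartilage in each piece, the cartilage collagens Col2a1, Col9a1, Col9a2, Col9a3, Col11a1, Col11a2 and Col10a1 were used. No independent measure of cartilage was available. Col2a1, the fibrillar collagen that defines cartilage, was at 15.2, 12.2 and 11.8 FPKM in the controls and fell to 7.17, 5.59 and 7.56 FPKM in the libraries labelled Med23MSC-/-, a log2 change of -0.86 ± 0.14 (limma adjusted p = 0.0404). It was at 6.81, 12.8 and 10.1 FPKM in WT and at 10.3, 31.5 and 14.3 FPKM in Runx2+/- mice, where the groups overlapped (log2 change 0.75 ± 0.37, limma adjusted p = 0.396). Of the 6 collagens tested, 1 fell and none rose in the Med23 set, with a median log2 change of -0.55, and none passed in the Runx2 set, with a median of 0.42. Col10a1, the collagen of hypertrophic cartilage, did not pass the filter. Its means were 1.11 FPKM in controls and 0.199 in Med23MSC-/- mice, and 0.680 in WT and 0.198 in Runx2+/- mice. Every mutant lay below every control of its set, as 7.68% and 10.4% of all genes tested did. Roughly 1 to 55 fragments per mouse lay behind Col10a1. Col11a1 and Col11a2, at means of 100 and 84.0 FPKM, were far above Col2a1, at 12.1 FPKM, and both are also made outside cartilage.

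Only Matn1 followed the cartilage collagens across the 12 mice beyond the correction for 10 genes. The mean of log2(FPKM + 1) over the collagens was 3.84 ± 0.08 in controls, 3.28 ± 0.06 in Med23MSC-/-, 3.54 ± 0.21 in WT and 3.83 ± 0.32 in Runx2+/- mice (SD, n = 3). Matn1 correlated with it at Pearson r = 0.805 (permutation p = 0.00153, adjusted 0.0153) and Spearman rho = 0.797 (permutation p = 0.00283, adjusted 0.0283). Here and below, permutations shuffled all 12 mice across groups, so their p-values include differences between the groups. Without the pair of mice farthest from the median of the index, r was 0.697, and it was 0.739 within the Med23 set and 0.861 within the Runx2 set. Against Col2a1 alone, Matn1 gave r = 0.841 (permutation p = 0.00026, adjusted 0.0026) and rho = 0.909 (permutation p = 0.0001, adjusted 0.001). With group means removed, r for Matn1 was still 0.682 against the collagens and 0.744 against Col2a1. Matn3 gave r = 0.662 with the collagens (permutation p = 0.0176, adjusted 0.0880) and rho = 0.699 (permutation p = 0.0142, adjusted 0.0710), with 0.734 and 0.791 within the sets, and did not pass the correction.

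Acan and Hapln1 did not follow the collagens over the 12 mice. The r of Acan was -0.128 (permutation p = 0.694, adjusted 0.771; rho = 0.0140, permutation p = 0.973, adjusted 0.973) and that of Hapln1 -0.230 (permutation p = 0.470, adjusted 0.671; rho = -0.301, permutation p = 0.343, adjusted 0.486). Without the farthest pair of mice they were -0.306 and -0.506. Hapln1 had r = -0.795 in the Med23 set and 0.811 in the Runx2 set, and Acan -0.635 and 0.785 (n = 6 mice each). The index did not overlap between the Med23 groups, so the negative values there carry the difference between the groups. With group means removed, r turned positive, at 0.509 for Hapln1 and 0.217 for Acan (0.623 and 0.283 against Col2a1). The other 6 genes had r between -0.464 (Sox9) and 0.602 (Matn4), and none passed the correction. Several values depended on the index. With 10 further cartilage genes added to it, Matn1 again was the only gene to pass (r = 0.906, permutation p = 6e-05, adjusted 0.0006). Hapln1 then had r = 0.0786, with -0.367 in the Med23 set, 0.944 in the Runx2 set and 0.882 with group means removed. For Acan these were -0.0537, -0.479, 0.883 and 0.132. Matn4 had r = 0.259 and Chad 0.649.

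**Figure D3:**
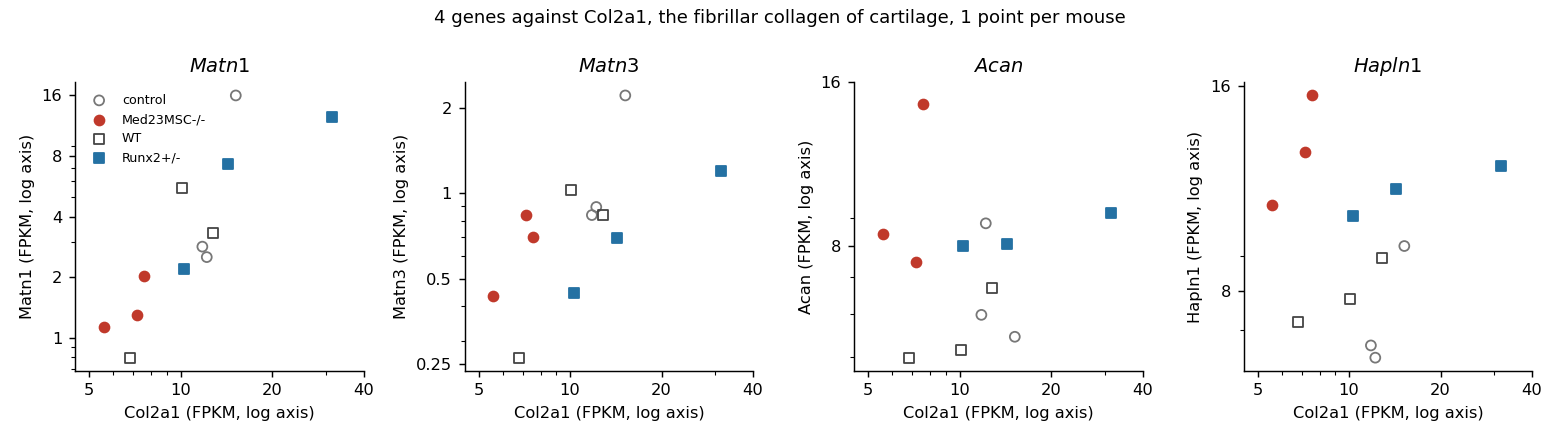
Matn1, Matn3, Acan and Hapln1 against Col2a1 (FPKM, both axes logarithmic), 1 point per mouse, with open symbols for controls and filled ones for mutants, circles for the Med23 set and squares for the Runx2 set. Matn1 rises along Col2a1 (r = 0.841), whereas the 3 Med23MSC-/- mice combine a low Col2a1 of 5.59 to 7.56 FPKM with Hapln1 of 10.7 to 15.5 FPKM.

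Per unit of Col2a1, which itself fell in the Med23 set, Sox9, Sox5, Sox6, Acan, Hapln1 and Chad lay wholly above the controls in Med23MSC-/- mice. The share of all genes tested that did so was not computed, so this cannot be read as a trait of these genes. The falling denominator raises such a ratio for any gene that does not fall with it, Chad included (1.46 to 2.19 in controls and 2.69 to 3.44 in mutants, with a log2 change of its own of -0.15). The FPKM ratio of Hapln1 to Col2a1 was 0.611, 0.522 and 0.566 in the controls and 1.78, 1.92 and 2.06 in the Med23MSC-/- mice. The Acan ratio was 0.357, 0.720 and 0.508 in the controls and 1.04, 1.50 and 1.94 in those mutants. The Runx2 groups overlapped in both ratios, with Hapln1 at 0.701 to 1.06 in WT and 0.386 to 0.995 in Runx2+/- mice, and Acan at 0.509 to 0.730 and 0.291 to 0.774. For Matn1 the ratio overlapped in both sets, at 0.206 to 1.05 in controls, 0.181 to 0.268 in Med23MSC-/-, 0.117 to 0.549 in WT and 0.213 to 0.512 in Runx2+/- mice. Genotype and cartilage collagen cannot be told apart in the Med23 set.

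Among the 45 pairs of the 10 genes, 4 correlated over the 12 mice at an adjusted p under 0.05, all positively. These p-values too include differences between the groups. The farthest mice here are the 2 farthest from the median of the first gene named in each pair, and can differ between pairs. Matn1 and Matn3 gave r = 0.825 (permutation p = 0.00038, adjusted 0.0171; rho = 0.727, permutation p = 0.00985, adjusted 0.111), 0.605 without the 2 farthest mice, and 0.959 and 0.888 within the sets. Sox5 and Acan gave r = 0.819 (permutation p = 0.00093, adjusted 0.0199; rho = 0.797, permutation p = 0.00293, adjusted 0.110), 0.621 without the farthest mice, and 0.808 and 0.882 within the sets. Sox5 and Hapln1 gave r = 0.814 (permutation p = 0.00133, adjusted 0.0199; rho = 0.769, permutation p = 0.0049, adjusted 0.110), 0.727 without them, and 0.828 and 0.920 within the sets. These relations passed by Pearson's r and none of them by Spearman's rho. Sox6 and Acan gave r = 0.809 (permutation p = 0.00275, adjusted 0.0309; rho = 0.622, permutation p = 0.0345, adjusted 0.194), which dropped to 0.492 without the farthest mice and was 0.881 and 0.658 within the sets. With group means removed, r was 0.946 for Matn1 and Matn3 and 0.606 to 0.638 for the other 3 pairs. For Hapln1 the values with group means removed were 0.754 with Matn1, 0.778 with Matn3, 0.210 with Sox6 and 0.276 with Acan. Sox9 correlated with Matn1 at r = -0.669 (permutation p = 0.0178, adjusted 0.1; rho = -0.685, permutation p = 0.0171, adjusted 0.154), which did not pass.

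**Figure D4:**
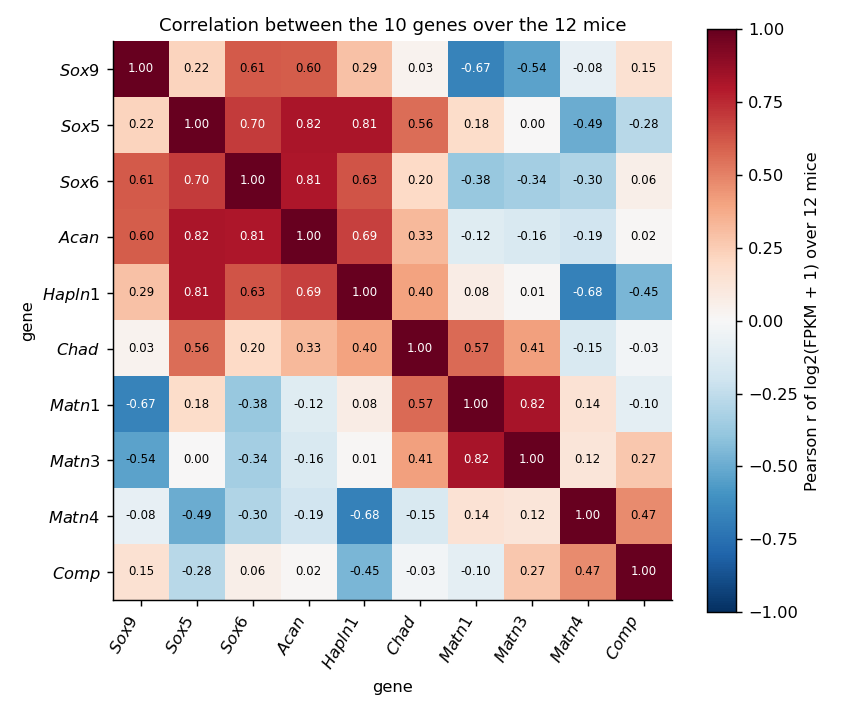
Pearson correlation of log2(FPKM + 1) between the 10 genes over the 12 mice, red for positive and blue for negative values. Sox5, Sox6, Acan and Hapln1 form 1 block of positive values (0.632 to 0.819) and Matn1 with Matn3 another (0.825), with values between the blocks from -0.376 to 0.184. These values include the differences between the groups.

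The genes outside the 10 that ran most like each of them over the 12 mice are given by Pearson r as a description. For Matn1 they were Col9a1 (0.945), Clec3a (0.932) and Ucma (0.898), all 3 of them cartilage genes. For Acan they were Gfra2 (0.954), Thbs3 (0.951) and Cdh3 (0.946). Comp ran closest to Slc25a10 (0.948), Fgfr3 (0.945), the growth plate receptor of fibroblast growth factors, and Fmnl3 (0.925).
For Hapln1 the closest were Cinp (0.947), Eya1 (0.931) and Pcdh9 (0.920), for Matn4 Epas1 (0.908) and Mgll (0.903) beside 1 RIKEN clone, and for Chad Srpr (0.899) and Cers2 (0.857) beside another. Sox9 had Tkfc (0.916), Ube2m (0.884) and Gfra4 (0.884), Sox5 had Sncaip (0.896), Pdzrn3 (0.891) and Tmem43 (0.886), Sox6 had Nt5m (0.900), Pcif1 (0.885) and Robo1 (0.881), and Matn3, with the weakest neighbours, Sys1 (0.828), Morrbid (0.782) and Itm2b (0.760).

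Of 9 further cartilage genes tested, 1 rose in the Runx2 set and none passed in the Med23 set, with median log2 changes of 0.64 and -0.20. The signs were 8 positive and 0 negative in the Runx2 set, 3 positive and 6 negative in the Med23 set, and negative for all 9 in the difference. The one that rose was Epyc, epiphycan, a small leucine-rich proteoglycan of the growth plate, which was at 7.73, 6.55 and 8.80 FPKM in WT and at 22.8, 26.0 and 28.1 FPKM in the libraries labelled Runx2+/- (log2 change 1.62 ± 0.12, limma adjusted p = 0.00303). In the Med23 set it was at 5.43 to 5.85 FPKM in controls and 4.84 to 7.77 FPKM in mutants. Of 3 hypertrophic zone genes tested, Panx3, a channel protein of hypertrophic chondrocytes and osteoblasts, rose in the Med23 set from 71.5 ± 6.98 to 118 ± 13.9 FPKM (SD, n = 3; log2 change 0.72 ± 0.11, limma adjusted p = 0.0385), and none passed in the Runx2 set. Pth1r of the same list went the other way in the Med23 set without passing (102 ± 11.4 to 82.0 ± 5.20 FPKM, limma adjusted p = 0.154). Col10a1, untested, was lower there too.

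Of 10 regulators around the SOX trio that were tested, 1 fell in the Med23 set and none passed in the Runx2 set. It was Foxc2, a forkhead factor of skeletal mesenchyme, at 7.22 to 7.35 FPKM in controls and 3.74 to 4.65 FPKM in Med23MSC-/- mice (log2 change -0.69 ± 0.10, limma adjusted p = 0.0320). None of the 10 relatives of the matrix genes tested passed in either set. The most abundant were Thbs2, a thrombospondin related to Comp, at 123 ± 18.6 FPKM in WT and 177 ± 11.2 FPKM in Runx2+/- mice (SD, n = 3; limma adjusted p = 0.0789), and Vcan, versican, the aggrecan relative of soft tissue, with adjusted p-values of 0.337 and 0.615 (limma). None of 13 genes for building the glycosaminoglycan chains, such as Ugdh and Chpf, and none of 9 genes of matrix turnover, such as Htra1 and Hyal2, passed in either set. The median log2 changes of the former were 0.14 and 0.17 and of the latter -0.12 and 0.01.

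Markers of other tissues in the pieces also moved with the groups. Summed FPKM over 12 skeletal muscle genes ranged from 26.7 to 1550 in controls, 669 to 4680 in Med23MSC-/-, 2150 to 6400 in WT and 31.1 to 210 in Runx2+/- mice, and 10 of the 11 tested fell in the Runx2 set. The 10 osteoblast genes summed to 42600 to 44300 in controls, 20700 to 27900 in Med23MSC-/-, 34700 to 39500 in WT and 24900 to 32100 in Runx2+/- mice. All 10 had lower means in the Med23 set, where 1 of them, Bglap, osteocalcin, fell (9740 ± 1670 to 2660 ± 1040 FPKM, SD, n = 3; limma adjusted p = 0.0401). In the Runx2 set 5 of them had higher and 5 lower means, with a median log2 change of 0.0, and none passed. The sums there rest largely on Spp1, with means of 17800 FPKM in WT and 10500 FPKM in Runx2+/- mice, and on Bglap. Of 6 osteoclast genes, 2 (Calcr and Dcstamp) fell in the Runx2 set. Of 8 tendon and ligament genes, which share Comp with cartilage, 1 (Egr1, an immediate early gene that many cells use) fell in the Med23 set. This list went both ways. In the Med23 set Tnmd, Scx, Mkx and Kera lay above every control, as 19.6% of all genes tested did. Egr1 and Tnc lay below every control, as 7.68% did. Tnmd was at 206 ± 50 FPKM in controls and 313 ± 15.4 FPKM in Med23MSC-/- mice (SD, n = 3, log2 change 0.63 ± 0.18, limma adjusted p = 0.113). Tnc was at 105 ± 7.57 and 83.0 ± 4.56 FPKM (log2 change -0.33 ± 0.09, limma adjusted p = 0.0990). In the Runx2 set Scx and Mkx lay above every WT mouse (10.7% of all genes tested did) and Thbs4 below (10.4%). None of the 4 Schwann cell, 3 brain, 5 erythroid and 1 epidermal genes tested passed in either set. The defining cartilage collagens were present in every library, Col2a1 at 5.59 FPKM or more. With the muscle list as a covariate the log2 change of Hapln1 was 0.43 ± 0.17 in the Med23 set, and that of Matn4 was -0.41 ± 0.21 there. In the Runx2 set those of Hapln1, Acan and Chad were 0.38 ± 0.32, 0.47 ± 0.36 and 0.68 ± 0.32 (SE). None of them was past the threshold (limma). The mean log2 level of the muscle list did not overlap between the Runx2 groups, at 5.55 to 6.73 in WT and 1.41 to 3.03 in Runx2+/- mice. Genotype and muscle level therefore cannot be told apart in the Runx2 set.

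Against the mean log2 level of the 10 osteoblast genes, Hapln1 alone of the 10 passed the correction over the 12 mice, with r = -0.792 (permutation p = 0.0021, adjusted 0.0210) and rho = -0.811 (permutation p = 0.00198, adjusted 0.0198). This r was -0.586 without the pair of mice farthest from the median, -0.908 in the Med23 set, -0.389 in the Runx2 set and -0.312 with group means removed. The permutations in this paragraph ignored the groups, so their p-values include group differences and do not test covariation within groups. The Med23 groups did not overlap in the osteoblast level either, at 9.63 to 9.73 in controls and 8.70 to 9.15 in mutants. Matn4 had r = 0.663 (permutation p = 0.0192, adjusted 0.0583; rho = 0.685, permutation p = 0.0172, adjusted 0.0860), with 0.547 without the farthest pair of mice. For Comp r was 0.650 (permutation p = 0.0223, adjusted 0.0583; rho = 0.608, permutation p = 0.0392, adjusted 0.131), with 0.710 without them. Neither passed. Against the 6 osteoclast genes, Acan had r = -0.726 (permutation p = 0.00791, adjusted 0.0791) and rho = -0.846 (permutation p = 0.00083, adjusted 0.0083), so that it passed by rank only. It had r = -0.769 without the farthest pair, -0.796 and -0.949 within the sets and -0.701 with group means removed. The other 9 genes did not pass against the osteoclast list by either measure.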

How the data were processed

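RNA libraries (Illumina TruSeq) of individual calvariae gave 1 table per mouse. Each table held, as deposited by the authors, FPKM per RefSeq transcript. The submitters' processing notes name Bowtie 0.12.8 and mm10, and the program that made the FPKM values is not given in the sources used here. Transcripts (30411, of which 29835 were named by an NCBI table) were summed per gene symbol. Genes at 1 FPKM or more in at least 3 mice were tested on log2(FPKM + 1), a scale that understates the change of low genes, with limma 3.58.1 (trend, moderated spread) in R 4.3.3, in each set of 6 mice and, for the difference of both changes, over all 12. Correlations used 100000 permutations in numpy 2.4.6, with ranks from scipy 1.17.1. These shuffled all mice across groups, so the p-values include differences between the groups. The proxy for cartilage was the mean log2 level of the cartilage collagens. The numbering of the mice gives no source of pairing. Each group had 3 mice. Values with no counts carry no counting interval, and depth was only roughly estimated.

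The genes and lists were chosen with earlier results of these data known. All 10 genes are named. Of each list of cartilage, regulator and matrix genes, those that passed are named, or otherwise the 2 most abundant. Of the lists of other tissues, those that passed are named, except that the skeletal muscle genes are counted. Some genes that did not pass, such as Pth1r and several tendon and ligament genes, are named as well. Of genes running alike, the 3 with the highest r are given. The relations to the osteoblast and osteoclast lists were tested after seeing the data. Alternatives varied the pseudocount, filter, scaling, fit, transcripts, covariates and mice included. The script for each test was tested on simulated data.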

Additional observations from a re-analysis of the deposited data

Results flagged for a closer look

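Epyc, the cartilage proteoglycan that was higher in Runx2+/- mice, was picked out because its changes in the 2 sets differed by test: the change in the Med23 set minus that in the Runx2 set was -1.57 on the log2 scale (limma adjusted p = 0.0225).

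Actn2, a sarcomere gene of the skeletal muscle list, differed in the same way by 4.95 (limma adjusted p = 0.0481), with 4.11 to 20.7 FPKM in Med23MSC-/- mice against 0.300 to 4.87 in controls and 0.0705 to 0.668 FPKM in Runx2+/- mice against 6.76 to 15.8 in WT.

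Smpd3, a sphingomyelinase of the skeleton, was at 42.1 to 58.6 FPKM in controls and 22.7 to 32.5 FPKM in Med23MSC-/- mice, and at 29.3 to 41.4 FPKM in WT and 42.1 to 50.4 FPKM in Runx2+/- mice. The groups of each set stood apart in opposite directions, and the changes differed by -1.25 (limma adjusted p = 0.0625), which did not pass.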

How the results depend on the processing

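Chad in the Runx2 set was called with a pseudocount of 0.1 and after rescaling, but the count of genes called there was 0 with no filter, with all 12 mice in 1 fit, with the most abundant transcripts, without moderation, with males only, with a covariate (collagen index, skeletal muscle list or Col2a1), without control mouse 1 of the Med23 set and Runx2+/- mouse 2, and without any single mouse (0 in every case). Limma called 1 gene, Hapln1, in the Med23 set with all 12 mice in 1 fit, and 0 there and in the difference under each other setting. The alternatives with Col2a1 as a covariate and without those 2 mice, which had the highest collagen index, were chosen after seeing the data.

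Whether the replicate numbers pair the mice is not stated in the labels and was not settled here. Same-numbered mice deviated together with r of 0.180, 0.259 and 0.0527 in the Med23 set and 0.00482, -0.0474 and -0.0836 in the Runx2 set. With the replicate block, 0 of the 10 genes were called in the Runx2 set (Chad adjusted p = 0.128, limma). The block moved the count over all genes from 205 to 273 in the Med23 set, from 247 to 90 in the Runx2 set and from 20 to 136 in the difference.

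No gene that changed direction was called in either fit. Most abundant transcript: Sox6 -0.30 (Med23 set), -0.01 (Runx2 set) and -0.29 (difference), and Matn4 0.04 (Runx2 set). Collagen index as covariate, which did not overlap between the Med23 groups: in the Med23 set Sox9 -0.15, Sox6 -0.46, Acan -0.37, Matn1 3.19, Matn3 1.87 and Chad 1.66, in the Runx2 set Matn3 -0.24, and in the difference Sox9 -0.20, Acan 0.26, Comp 0.04, Matn1 0.54 and Matn3 0.57. Col2a1 as covariate: in the Med23 set Matn1 1.81, Matn3 0.89 and Chad 1.11, in the Runx2 set Matn1 -0.06 and Matn3 -0.28, and in the difference Sox9 -0.19, Acan 0.28, Matn1 0.22 and Matn3 0.39. Skeletal muscle covariate, which did not overlap between the Runx2 groups: in the Runx2 set Comp 0.33 and Matn4 0.83, and in the difference Acan 0.42, Comp 0.22 and Hapln1 -0.30. Males only: Matn3 -0.14 (Runx2 set) and Acan 0.29 (difference). Without the 2 mice with the highest collagen index: Chad 0.09 (Med23 set), Matn3 -0.10 (Runx2 set) and Sox9 -0.09 (difference). The cause was not tested.

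Leaving out 1 mouse at a time, the changes that crossed 0 ran from -0.37 to 0.09 for Chad in the Med23 set, in the Runx2 set from -0.04 to 0.20 for Sox9, -0.14 to 0.21 for Matn3 and -0.43 to 0.07 for Matn4, and in the difference from -0.01 to 0.26 for Sox9, -0.02 to 0.25 for Sox6 and -0.29 to 0.16 for Acan. Over these single-mouse omissions Hapln1 kept a positive change in the Med23 set (0.61 to 0.89) and the Runx2 set (0.39 to 0.53), and Acan likewise (0.23 to 0.68 and 0.45 to 0.63).

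With 3 mice a group, values near 1 FPKM (Sox5, Matn3) and partly unequal sexes, small changes were not detectable. Of all genes tested, the count called in the Med23 set ranged from 0 to 717 and in the Runx2 set from 1 to 252 over the settings.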
